A study of Mus musculus with 8 samples.

Results

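Osteoblasts are made from mesenchymal stromal cells of bone and bone marrow, and 9 transcription factor genes with textbook roles in this lineage (*Runx2*, *Sp7*, *Dlx3*, *Dlx5*, *Msx2*, *Atf4*, *Creb3l1*, *Prrx1* and *Maf*) were followed here, of the 32285 genes counted. They were chosen by symbol, and each was found once in every library. The data are single-cell RNA-seq libraries of bone from 8 female mice, 1 library per mouse, with 2 mice in each of 4 groups. Control mice of 7 and 13 weeks were homozygous for floxed (fl/fl) alleles of all SOXC genes (*Sox4*, *Sox11* and *Sox12*) and had no Cre, and SOXCOsxCre mice of the same ages carried these alleles with *OsxCre*. This Cre transgene is driven by the promoter of *Sp7* (also called *Osx*), acts mainly in the osteoblast lineage and is repressed by tetracyclines. The study's default was to give doxycycline in the food of *OsxCre* mice until weaning, so that deletion began after it. Since every mutant and no control carried the transgene, its presence and the loss of SOXC cannot be told apart in these libraries. Femurs and tibiae had been freed of periosteum, flushed of marrow and digested, and haematopoietic cells had been depleted with magnetic beads.

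RUNX2 is the factor without which no osteoblasts form, and SP7 (osterix) acts downstream of it in the same commitment. PRRX1 is a homeodomain protein of limb and stromal mesenchyme, and MAF is a bZIP factor that favours the osteoblastic over the adipocytic fate. DLX3, DLX5 and MSX2 are homeodomain proteins that bind like sites in bone genes and respond to BMP signals. ATF4 is the effector of the amino acid and endoplasmic reticulum stress responses, and CREB3L1 (OASIS) is held in the endoplasmic reticulum membrane until it is cut and moves to the nucleus, where it activates collagen and secretory genes. *Runx2* and *Sp7* also take part in cartilage hypertrophy.

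The genes lie on 8 chromosomes of GRCm38 (mm10). *Runx2* spans 17:44495987-44814797 on the minus strand, *Sp7* 15:102356606-102367182 (minus), *Dlx3* 11:95120119-95125296 (plus) and *Dlx5* 6:6877805-6882085 (minus). *Msx2* spans 13:53466884-53473074 (minus), *Atf4* 15:80255184-80257541 (plus), *Creb3l1* 2:91982328-92024502 (minus), *Prrx1* 1:163245119-163313710 (minus) and *Maf* 8:115682942-115707794 (minus). The libraries sample the 3′ end of each transcript, so isoforms and promoters of a gene were not told apart.

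In all, 59629 cells were kept, between 6410 and 8753 per mouse, and grouped into 31 clusters. The replicate 1 libraries (127864255 to 156090286 UMIs, or unique molecular identifiers, over all barcodes) were deeper than the replicate 2 libraries (81894604 to 89283370) in every group, and 2 libraries shared at most 23 barcodes. Clusters were named from markers, without using any of the 9 genes, as *Sca1*+ mesenchymal stromal cells (MSC), *Lepr*+ MSC, *Lepr*+ osteoprogenitors (OP), osteoprogenitors or preosteoblasts (OP/preOB), their proliferating counterpart, osteoblasts (OB), osteocytes, hypertrophic growth plate chondrocytes (GPC), GPC, pericytes and endothelial cells, each with the suffix -like because the names were rebuilt. Of the 13 osteocyte markers, *Fgf23* had no UMI in the osteocyte-like class. Cells numbered between 393 (proliferating OP/preOB-like) and 21673 (OB-like), and the smallest class of a single mouse held 18. Low-UMI clusters (8.59 to 21.2% of the non-haematopoietic cells of a mouse) were kept out of the classes. The targeted gene *Sox4* was lower in the mutants in 6 classes, by 1.51 on the log2 scale in OB-like cells (edgeR, adjusted p = 0.000926), where it had 191, 167, 183 and 173 counts per 1000000 UMIs (CPM) in the controls and 56.4, 48.1, 52.9 and 80.4 in the mutants. *Sox12* was lower in 3 classes, *Lepr*+ OP-like, OP/preOB-like and OB-like, and *Sox11* was close to 0 outside endothelial-like cells.

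Levels below are CPM, the UMIs of a gene per 1000000 UMIs of all genes in the same class and mouse, as mean ± SD of the 4 control mice, and therefore describe a share of the RNA and not an amount per cell. No level is compared between genes. *Prrx1* and *Maf* were genes of the stromal cells. *Prrx1* stood at 291 ± 42.0 CPM in the *Lepr*+ MSC-like class, 438 ± 77.4 in *Lepr*+ OP-like and 273 ± 75.5 in OP/preOB-like cells, then at 73.4 ± 23.2 in OB-like and 36.0 ± 10.4 in osteocyte-like cells. *Sca1*+ MSC-like (366 ± 132), pericyte-like (318 ± 24.0) and proliferating OP/preOB-like cells (294 ± 114) had levels within 1 SD of their neighbours in this order. The drop between the stromal and the osteoblastic classes was wider than these spreads. In GPC-like (2.57 ± 1.30) and hypertrophic GPC-like cells (3.11 ± 1.45), *Prrx1* was at the level of an erythroid-like cluster (2.20 ± 1.14). That cluster serves as background because red cell precursors should lack these genes, except *Atf4*.

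*Maf* showed the largest fall of the 9 genes. It went from 475 ± 143 CPM in *Lepr*+ OP-like and 316 ± 66.7 in OP/preOB-like cells to 27.9 ± 4.96 in OB-like and 19.5 ± 5.02 in osteocyte-like cells. In single control mice, *Maf* in OP/preOB-like cells was 398 and 237 CPM at 7 weeks and 331 and 299.6 at 13 weeks, against 27.8, 22.1, 34.2 and 27.6 in OB-like cells of the same mice. No control mouse came near an overlap. *Lepr*+ MSC-like (371 ± 56.1), *Sca1*+ MSC-like (302 ± 197), endothelial-like (232 ± 56.3) and pericyte-like cells (219 ± 39.6) also held much *Maf*, and neighbours in this order differed by less than 1 SD. Hypertrophic GPC-like (12.1 ± 4.16) and GPC-like cells (4.96 ± 2.05) were lower, and both were above the erythroid-like cluster (1.61 ± 0.554).

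*Runx2* peaked in the progenitors and not in the osteoblasts. It was 303 ± 43.6 CPM in *Lepr*+ OP-like and 312 ± 46.7 in OP/preOB-like cells, which did not differ beyond their spread. *Lepr*+ MSC-like cells had 210.1 ± 12.2, proliferating OP/preOB-like cells 183 ± 16.6, OB-like cells 123 ± 6.82 and osteocyte-like cells 86.6 ± 6.15. Hypertrophic GPC-like cells (118 ± 23.7) lay at the OB-like level and GPC-like cells (109 ± 8.53) slightly below it, both above the osteocyte-like level. Endothelial-like cells had 8.97 ± 2.21 and the erythroid-like cluster 3.40 ± 0.278. After each cell was thinned to 2000 UMIs, 45.8 ± 7.52% of *Lepr*+ OP-like cells held a *Runx2* UMI (SD over 8 mice), against 21.3 ± 0.774% of OB-like, 17.4 ± 2.76% of osteocyte-like, 1.43 ± 0.729% of endothelial-like and 0.301 ± 0.434% of erythroid-like cells. Without thinning these shares were 75.1, 74.0, 66.0, 4.60 and 5.78%, so the unthinned shares of *Lepr*+ OP-like and OB-like cells were alike although their CPM were not.

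*Sp7* was low in *Lepr*+ MSC-like (37.1 ± 9.45 CPM) and *Sca1*+ MSC-like cells (47.1 ± 26.7), which did not differ beyond their spread, and higher in the next class. *Lepr*+ OP-like (101 ± 12.1), OP/preOB-like (104 ± 12.3), proliferating OP/preOB-like (119 ± 47.7), OB-like (144 ± 16.2) and osteocyte-like cells (159 ± 31.1) formed a rank in which each differed from the next by less than 1 SD. GPC-like (49.1 ± 6.5) and hypertrophic GPC-like cells (44.2 ± 6.24) had *Sp7* at the level of *Lepr*+ MSC-like cells or slightly above it, and far above the erythroid-like cluster (2.42 ± 1.34).

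*Dlx3* and *Dlx5*, 2 genes of 1 homeodomain family, rose together at the first step and parted after the *Lepr*+ OP-like class. *Dlx3*, whose product is linked to the late osteoblast and osteocyte stages, was 1.28 ± 0.408 CPM in the *Lepr*+ MSC-like class, 4.42 ± 2.85 in *Lepr*+ OP-like, 12.1 ± 2.01 in OP/preOB-like, 31.2 ± 4.23 in OB-like and 44.6 ± 9.79 in osteocyte-like cells. It was 4.35 ± 2.33 in hypertrophic GPC-like and 2.48 ± 0.857 in GPC-like cells, and 0.628 ± 0.443 in the erythroid-like cluster. *Dlx5*, whose product acts early and upstream of *Sp7*, was highest in *Lepr*+ OP-like cells with 188, 175, 159 and 196 CPM in the 4 control mice. OP/preOB-like cells followed with 120, 109, 95.9 and 156 CPM, below the *Lepr*+ OP-like level of the same mouse in each case. On the CPM scale OB-like (48.8 ± 7.62) and osteocyte-like cells (32.2 ± 8.96) had less *Dlx5* than *Lepr*+ MSC-like cells (71.5 ± 12.3). With sums scaled by TMM factors, as described below, its 3 steps from *Lepr*+ MSC-like to OB-like cells were 1.39, -0.36 and -0.46 on the log2 scale. The order of *Lepr*+ MSC-like and OB-like cells is therefore reversed under that scaling. Hypertrophic GPC-like (37.9 ± 9.37), GPC-like (32.4 ± 5.54) and osteocyte-like cells had *Dlx5* levels that did not differ beyond their spread, and pericyte-like cells had 82.0 ± 10.3.

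*Msx2* was close to the detection limit. Its mean was at most 1.47 CPM in the osteogenic and chondrocyte classes, it had no UMI in the *Sca1*+ MSC-like cells of any mouse, and it was highest in pericyte-like cells (5.73 ± 5.18). Its order among the osteogenic classes could not be read at this depth.

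The 2 bZIP factors of the stress and secretory responses also differed. *Atf4* was present in every class at 184 ± 29.3 to 384 ± 40.0 CPM and was also 215 ± 25.3 in the erythroid-like cluster, so it did not mark the lineage. Each class differed from the next in rank by less than 1 SD, except the lowest, *Sca1*+ MSC-like cells. *Creb3l1* was 44.8 ± 5.94 in *Lepr*+ MSC-like and 37.5 ± 4.93 in *Lepr*+ OP-like cells, and 201 ± 40.6 in OP/preOB-like cells. It reached 312 ± 23.8 in OB-like cells and was 243 ± 25.3 in osteocyte-like cells. The lowest of the 4 control mice in OP/preOB-like cells had 152 CPM of *Creb3l1* and the highest in *Lepr*+ OP-like cells had 42.3. *Sca1*+ MSC-like cells (108 ± 26.3) had more *Creb3l1* than both *Lepr*+ classes, and GPC-like (45.6 ± 11) and hypertrophic GPC-like cells (42.6 ± 8.55) were at the *Lepr*+ level.

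**Figure D1:**
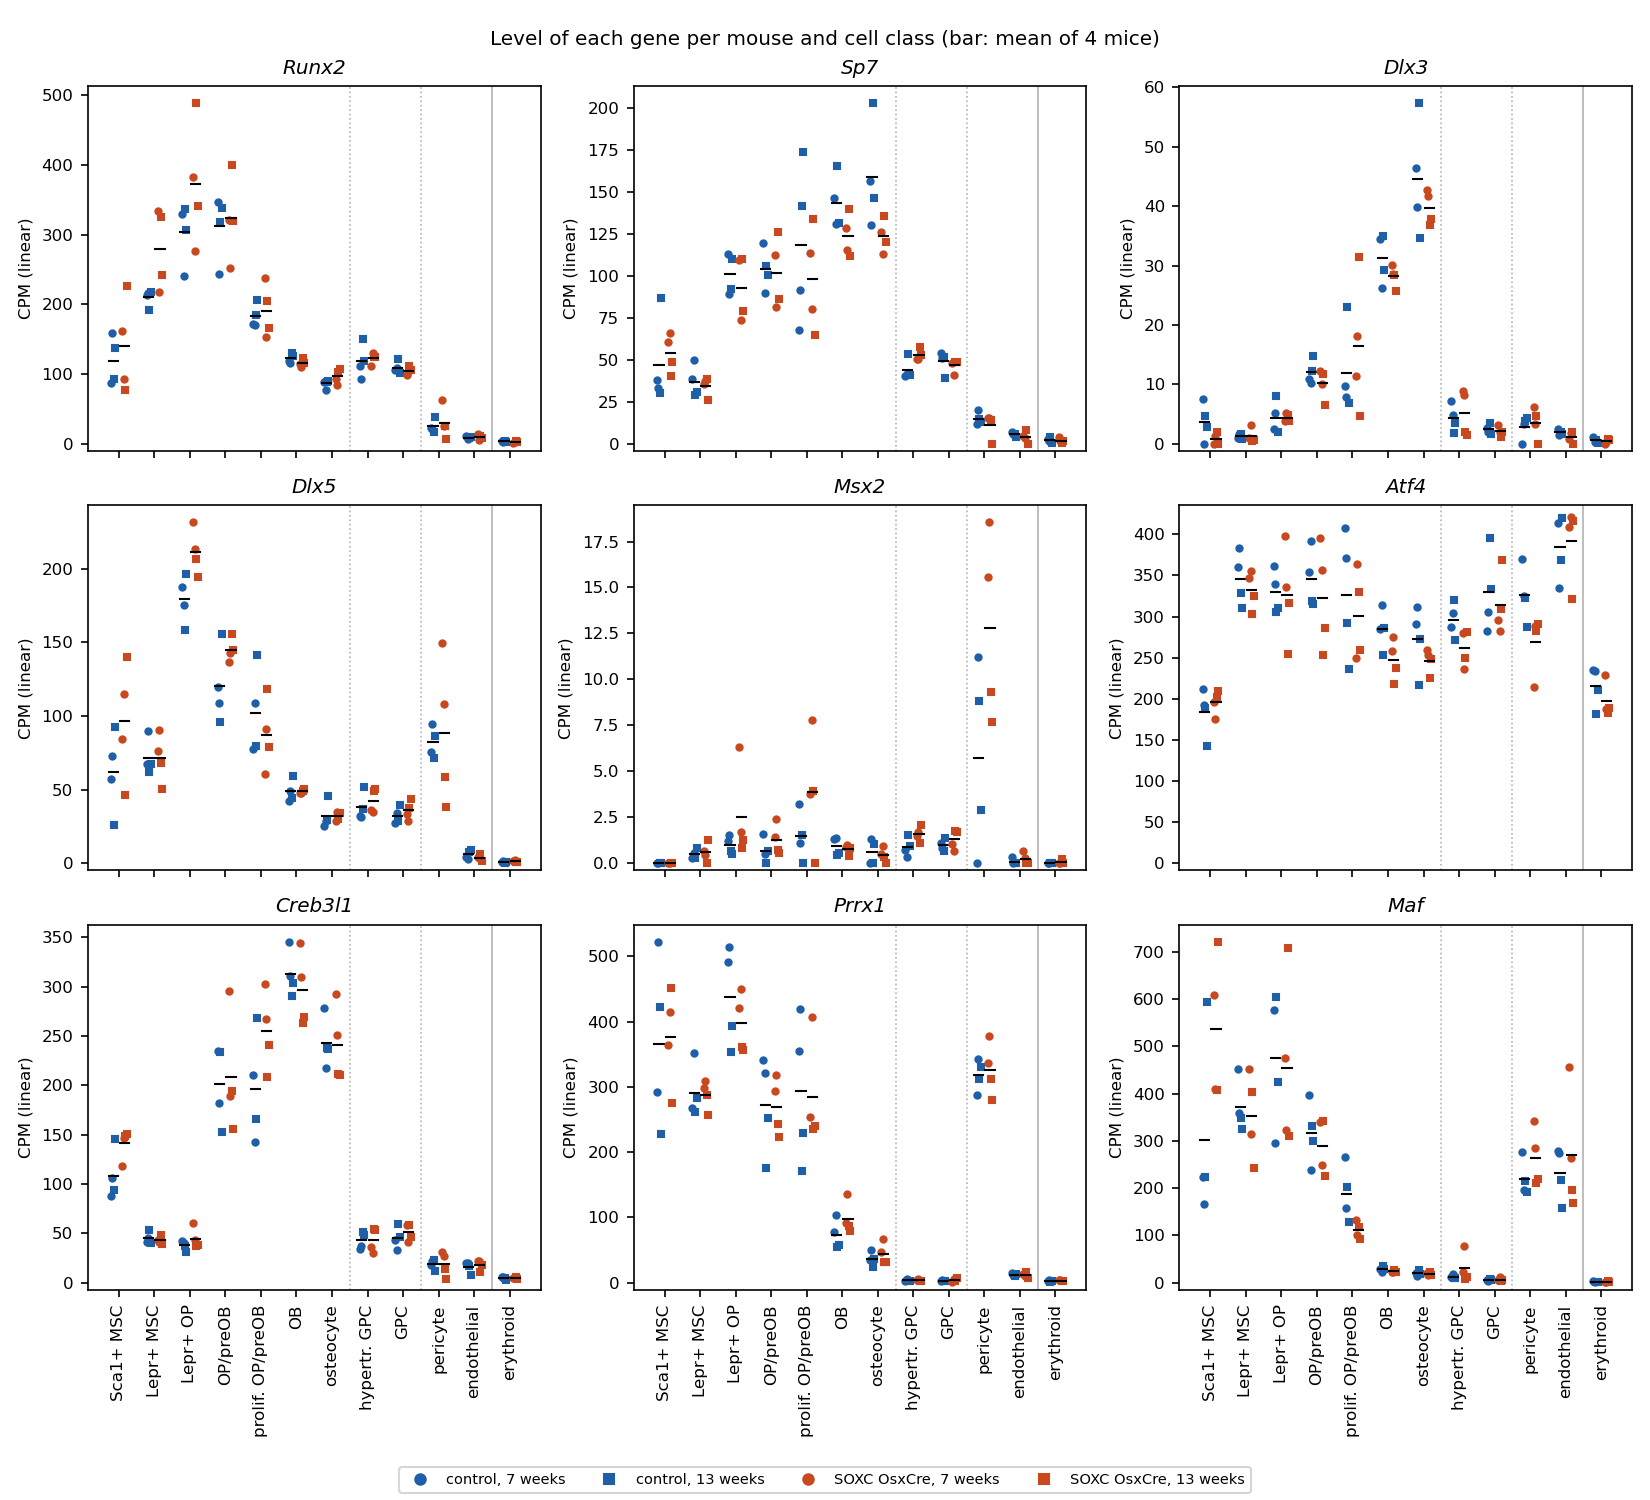
Level of each of the 9 genes (CPM, linear axis) in the 11 classes and the erythroid-like cluster, with 1 point per mouse, coloured by genotype and shaped by age, and a bar at the mean of 4 mice. *Maf* and *Prrx1* are high in stromal classes and low in OB-like cells, *Dlx3* and *Creb3l1* run the other way, and *Atf4* is nearly level.

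The change from each class to the next was then tested within mice, as the difference in log2(CPM + 1) between neighbouring classes of the same mouse, with a two-sided exact sign-flip permutation test over the 8 mice and Benjamini-Hochberg adjustment over the 45 gene and step pairs. The smallest p this design can give is 0.0078125, which all 8 mice moving the same way reach. The classes come from clusters of these same cells, although the 9 genes were left out of the clustering. Of the 45 pairs, 28 passed, among them 1 of *Msx2* that rests on few UMIs. Many genes pass such a test. From *Lepr*+ MSC-like to *Lepr*+ OP-like cells 30.7% of all genes with at least 10 CPM moved the same way in all 8 mice, and the shares were 36.6% at the step to OP/preOB-like, 75.9% at the step to OB-like, 36.2% at the step to osteocyte-like cells and 54.9% from GPC-like to hypertrophic GPC-like cells. By the same measure, 5, 5, 8, 6 and 1 of the 9 genes moved the same way in all 8 mice at these steps.

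From *Lepr*+ MSC-like to *Lepr*+ OP-like cells, 5 genes rose in all 8 mice, where 15.9% of all genes did. The rise was 1.45 ± 0.285 on the log2 scale for *Dlx5* (SD, n = 8), 1.42 ± 0.340 for *Sp7*, 1.23 ± 0.520 for *Dlx3*, 0.52 ± 0.160 for *Prrx1* and 0.46 ± 0.221 for *Runx2* (adjusted p = 0.0141 each, exact test). *Msx2* passed as well (0.69 ± 0.725, higher in 7 of 8 mice, adjusted p = 0.0377, exact test), but with 13 and 29 UMIs over the 8 mice in these classes no change is read from it, and the call was kept in only 1 of the 8 fits without a single mouse (without the replicate 2 control of 13 weeks). *Maf* was higher in 7 of 8 mice by 0.32 ± 0.372 and did not pass (adjusted p = 0.0606, exact test), and without the replicate 2 control of 7 weeks it did (0.40, adjusted p = 0.0251, exact test). *Atf4* and *Creb3l1* did not change beyond the spread, with -0.06 ± 0.134 and -0.11 ± 0.321.

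At the step to OP/preOB-like cells *Creb3l1* rose by 2.28 ± 0.204 and *Dlx3* by 1.21 ± 0.640 in 8 of 8 mice, where 9.31% of all genes rose in all 8. *Prrx1* fell by 0.64 ± 0.165, *Dlx5* by 0.57 ± 0.160 and *Maf* by 0.57 ± 0.252 in 8 of 8 mice (adjusted p = 0.0141 each, exact test), where 27.3% of all genes fell in all 8. *Runx2* (-0.08 ± 0.151) and *Sp7* (0.08 ± 0.110, adjusted p = 0.0989, exact test) did not pass, and without the replicate 2 control of 13 weeks *Sp7* did (adjusted p = 0.0251, exact test). When sums were scaled with TMM factors in place of plain CPM, which moved all genes up by 0.21, *Sp7* rose by 0.29 and *Atf4* by 0.23. Both rose in 8 of 8 mice (adjusted p = 0.0126 each, exact test), whereas *Atf4* had 0.02 ± 0.101 on the CPM scale. *Dlx3* is a low gene in these first classes, and both its first steps were lost when cells were limited to 5% mitochondrial UMIs (adjusted p = 0.256 and 0.121, exact test).

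At the step to OB-like cells *Dlx3* rose by 1.36 ± 0.265, *Creb3l1* by 0.60 ± 0.263 and *Sp7* by 0.38 ± 0.170 in 8 of 8 mice, where 7.93% of all genes rose in all 8. *Maf* fell by 3.49 ± 0.232, *Prrx1* by 1.68 ± 0.311, *Dlx5* by 1.41 ± 0.20 and *Runx2* by 1.39 ± 0.202 in 8 of 8 mice, and all 7 of these steps had an adjusted p of 0.0141 (exact test). A fall was the common case here, with 68.0% of all genes falling in all 8 mice. OB-like cells put 38.3% of their UMIs into 10 genes, led by *Col1a1*, *Col1a2* and *Bglap*, against 15.9% in OP/preOB-like cells, and this lowers the CPM of other genes. Scaling the sums with TMM factors in place of plain CPM moved all genes up by 0.96 at this step. All 7 steps kept their direction under it, whereas *Atf4*, which fell by 0.32 ± 0.138 on the CPM scale (adjusted p = 0.0141, exact test), rose by 0.64 under TMM scaling (adjusted p = 0.0126, exact test). *Msx2*, at -0.03 ± 0.484, had 0.46 under TMM scaling (adjusted p = 0.033, exact test).

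**Figure D2:**
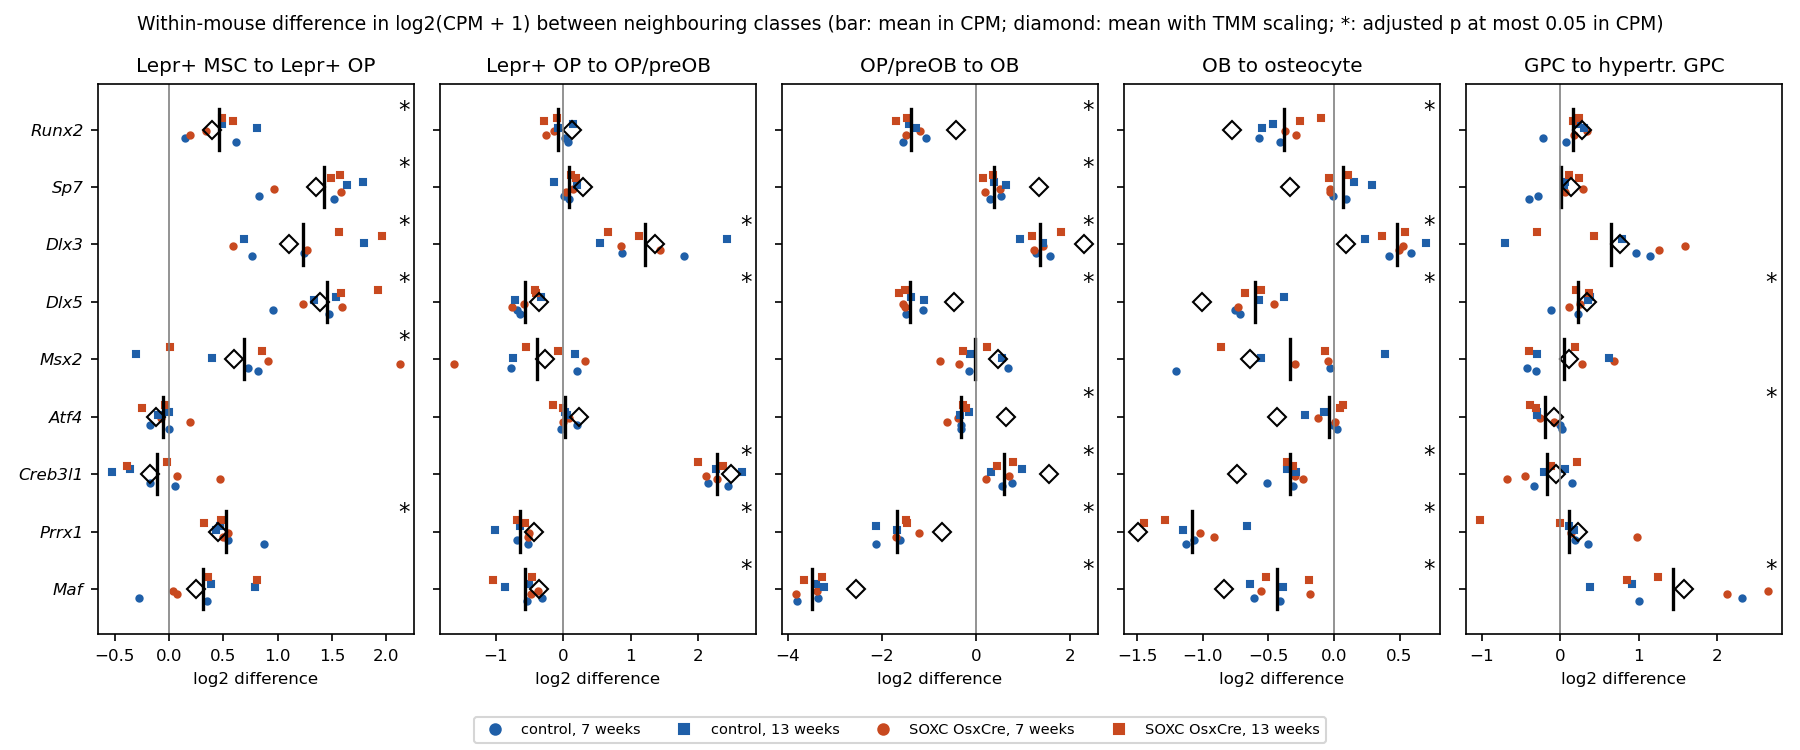
Change of each gene at the 5 steps (x axis, difference in log2(CPM + 1)), with 1 point per mouse, a bar at the mean, a diamond at the mean under TMM scaling and a star where the CPM test passed. At the step to OB-like cells *Maf* and *Prrx1* lie below 0 and *Dlx3* and *Creb3l1* above 0 on both scales, and *Atf4* moves from -0.32 to 0.64 under TMM scaling.

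Between OB-like and osteocyte-like cells *Prrx1* fell by 1.09 ± 0.235, *Dlx5* by 0.61 ± 0.138, *Maf* by 0.44 ± 0.177, *Runx2* by 0.38 ± 0.158 and *Creb3l1* by 0.33 ± 0.0811, each in 8 of 8 mice (adjusted p = 0.0141, exact test), where 12.8% of all genes fell in all 8. *Dlx3* rose by 0.48 ± 0.142 in 8 of 8 mice, where 23.4% of all genes rose in all 8. Under TMM scaling, which moved all genes by -0.40 here, its rise was 0.09 and did not pass (adjusted p = 0.13, exact test), and *Sp7* turned from 0.07 ± 0.118 to -0.33 (adjusted p = 0.0126, exact test). The median step of all genes was 0.07 on the CPM scale and -0.33 under TMM scaling. *Sp7* thus moved like the typical gene on both scales. With all kept cells, *Sp7*, *Atf4* and *Msx2* did not pass on the CPM scale. At the stricter mitochondrial limit given above, *Sp7* rose by 0.11 in 8 of 8 mice and passed (adjusted p = 0.0153, exact test). *Atf4* (-0.44, adjusted p = 0.0126, exact test) and *Msx2* (-0.64, adjusted p = 0.033, exact test) fell under TMM scaling, as *Sp7* did. The share of all genes that fell under TMM scaling is not given, so these falls are not read as a result about these genes. Without the replicate 2 control of 13 weeks the fall of *Msx2*, which had 10 UMIs in osteocyte-like cells over the 8 mice, passed on the CPM scale (-0.44, adjusted p = 0.0251, exact test).

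From GPC-like to hypertrophic GPC-like cells, *Maf* rose by 1.43 ± 0.816 in 8 of 8 mice (adjusted p = 0.0141, exact test), where 15.7% of all genes rose in all 8. The rise was 0.93 and did not pass when more cells were left out as doublets (adjusted p = 0.0606, exact test). *Dlx5* rose by 0.22 ± 0.165 and *Atf4* fell by 0.20 ± 0.156, each in 7 of 8 mice (adjusted p = 0.0377, exact test). The *Dlx5* call was kept in only 1 of the 8 fits without a single mouse and the *Atf4* call in 2, in both cases those without a control of 7 weeks (replicate 2, and for *Atf4* also replicate 1). *Runx2* (0.16 ± 0.176) and *Sp7* (0.01 ± 0.239) did not pass, and without the replicate 2 control of 7 weeks *Runx2* did (0.21, adjusted p = 0.0251, exact test). Under TMM scaling *Runx2* passed (0.28, adjusted p = 0.0234, exact test) and *Atf4* did not (-0.08, adjusted p = 0.153, exact test).

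OB-like cells were not uniform in these factors. The 6 OB-like clusters and the osteocyte-like cluster 16 are described here without a test, since clustering set them apart. *Atf4* was highest in cluster 0 with 401, 431, 383 and 447 CPM in controls and 357, 397, 317 and 369.6 in mutants. In cluster 1 it was 174, 195, 141 and 165 in controls and 153, 170.1, 142 and 136 in mutants. These 2 clusters did not overlap, in single mice or as a whole, although both were led by *Bglap2*, *Bglap* and *Ifitm5* (osteoblast genes). Of the 21 ATF4 targets, which are genes of amino acid supply and stress, 20 were matched to a single gene, of which 17 had a higher mean in cluster 0 and 3 (*Ddit4*, *Pycr1* and *Aldh18a1*) in cluster 1. Among genes with at least 10 CPM in either cluster, 59.8% of all 6585 genes and 13 of 16 ATF4 targets (81.2%) were higher in cluster 0, with median ratios of 1.07 and 1.70, and no test was made of this. The amino acid transporter *Slc7a1* was 32.1 ± 6.62 CPM in cluster 0 and 8.24 ± 0.914 in cluster 1 (SD, n = 8 mice), *Sesn2* was 23.1 ± 3.77 and 5.63 ± 1.24, and *Atf3* was 1049 ± 155 and 85.1 ± 29.8. The immediate early genes *Fos*, *Jun*, *Egr1* and *Ier2*, which respond to tissue digestion, were lowest in cluster 1 (849 ± 129, 328 ± 88.4, 255 ± 62.5 and 296 ± 63.9). In cluster 0 they were 973 ± 312, 702 ± 82.0, 475 ± 101 and 852 ± 151, for *Fos* within 1 SD of cluster 1. They were higher in cluster 2 (2609 ± 406, 1047 ± 139, 992 ± 67.3 and 1064 ± 172), where *Atf4* was 254 ± 23.3. Their part in the *Atf4* difference was not tested. These 7 genes were chosen after their values were seen.

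Cluster 0 also had the lowest *Sp7* (92.6 ± 13.3 CPM against 140.5 to 159 in the other 6 clusters) and the lowest mean of *Dlx3* (19.8 ± 2.45), the latter within 1 SD of cluster 25 (26.5 ± 8.25). *Runx2* was highest in cluster 12 (181 ± 20.8), which was led by *Col22a1*, *Col1a1* and *Col1a2*, and lowest in cluster 16 (91.9 ± 9.64). The cells of cluster 12 had medians of 6615 UMIs and 7.31% mitochondrial UMIs. In the other OB-like clusters these medians were 13068 to 14246 UMIs and 3.28 to 4.53%. The part of depth and cell quality in the levels of cluster 12 was not tested. Cluster 12 also had the most *Dlx3* of the OB-like clusters (41.1 ± 5.20) and the least *Dlx5* (32.2 ± 6.19), but cluster 1 was within 1 SD for *Dlx3* (37.0 ± 6.61) and cluster 0 for *Dlx5* (35.6 ± 4.39). *Dlx5* (69.7 ± 7.30) and *Prrx1* (115 ± 34.4) had their highest means in cluster 10, for *Prrx1* within 1 SD of clusters 1 and 25. *Maf* was 40.9 ± 7.31 in cluster 10 and 41.6 ± 9.69 in cluster 12, about 2-fold its level in clusters 1 and 2 (19.9 ± 3.47 and 20.7 ± 3.74). Among the OB-like clusters *Creb3l1* varied least, from 281 ± 29.9 (cluster 0) to 338 ± 44.2 (cluster 12). Cluster 25, led by the interferon genes *Ifit3* and *Iigp1*, stood between the others for all these genes.

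**Figure D3:**
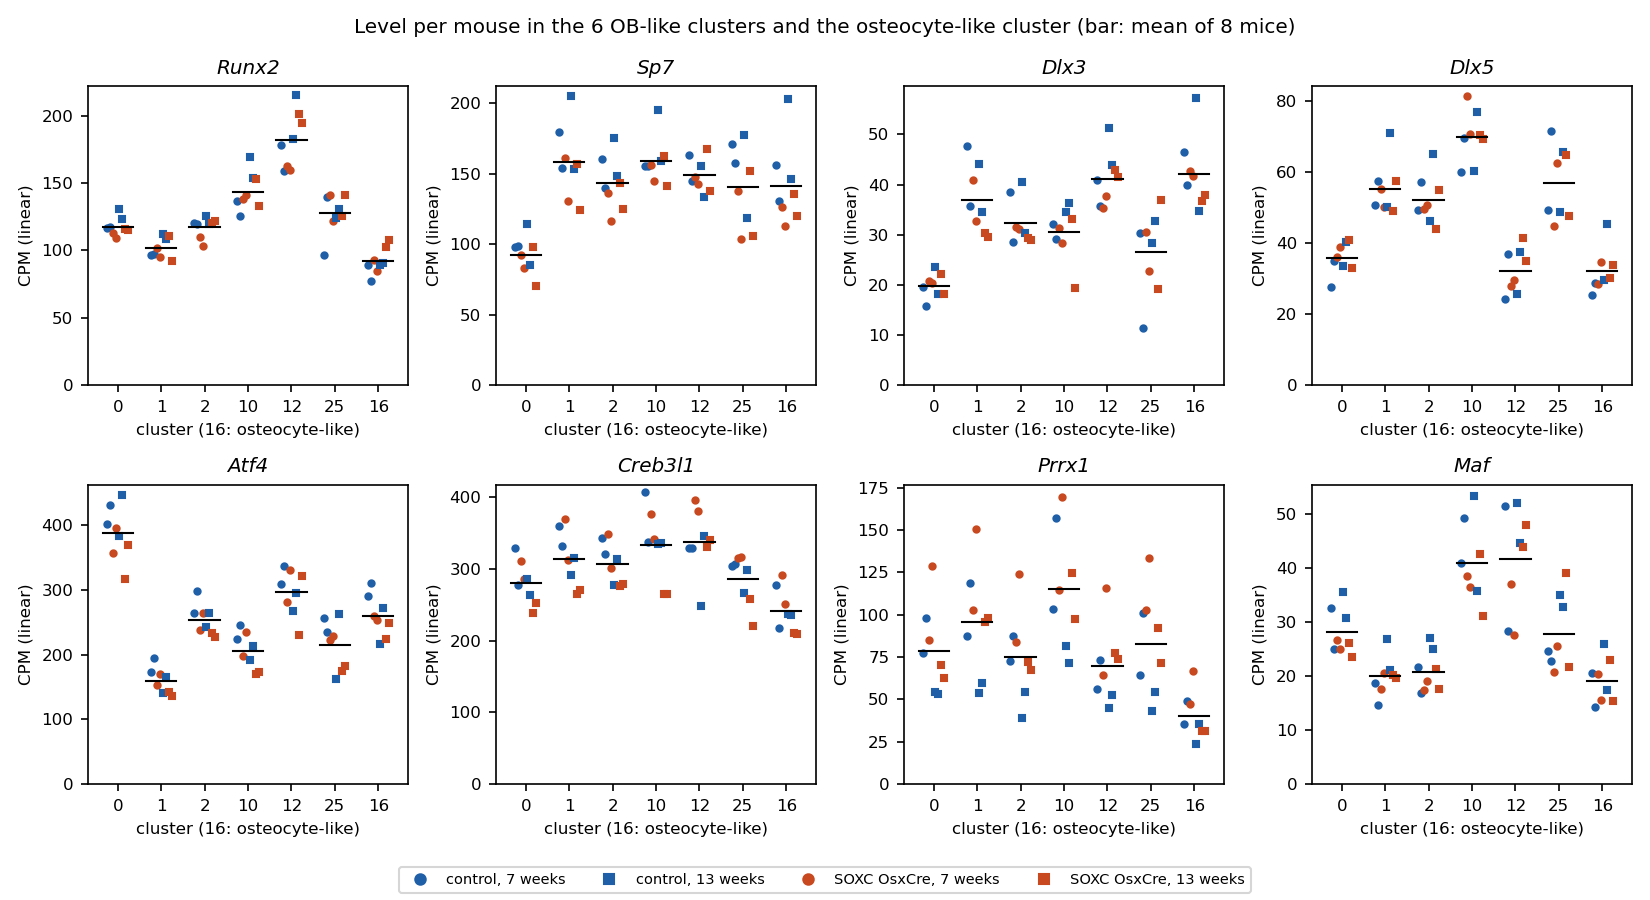
Levels (CPM, linear axis) of 8 of the genes (*Msx2* left out) in the 6 OB-like clusters and osteocyte-like cluster 16, with 1 point per mouse, coloured by genotype and shaped by age, and a bar at the mean of 8 mice. *Atf4* in cluster 0 (317 to 447) lies above cluster 1 (136 to 195) in every mouse, and *Sp7* and *Dlx3* have their lowest means in cluster 0.

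The control means of the 11 classes were compared as patterns, on the log2(CPM + 1) scale. The points share libraries, and the classes share depth differences, so these correlations are given as a description. Among the 9 genes, *Dlx3* and *Creb3l1* were most alike (r = 0.856, n = 11 classes), followed by *Sp7* and *Creb3l1* (0.855), *Prrx1* and *Maf* (0.825) and *Runx2* and *Sp7* (0.801). *Atf4* and *Creb3l1* were least alike (-0.396). Of 11063 other genes with more than 10 CPM in at least 1 class, those with the most similar pattern were *Larp6*, *Znrf3* and *Ak1* for *Runx2* (0.984, 0.944 and 0.936). For *Sp7* they were *Bmp1*, *Smim4* and *Efs* (0.931, 0.930 and 0.928), for *Dlx3* *Cdo1*, *Farp2* and *Me2* (0.982, 0.971 and 0.963), and for *Dlx5* *Dlx6os1*, *Ddr2* and *Tbx15* (0.959, 0.954 and 0.95). *Dlx6os1* lies next to *Dlx5* in the genome, and overlapping reads of neighbouring genes were not examined. *Creb3l1* was followed by *Mmp16*, *Ddx59* and *Has1* (0.954, 0.942 and 0.939), *Prrx1* by *Gstm2* and *Hspa13* (0.988 and 0.982) and *Maf* by *Arhgef11*, *Ap3m2* and *Zcchc24* (0.987, 0.982 and 0.980). *Atf4*, which varied little, was followed by *Mnt*, *Gm49336* and *Rnf4* (0.933, 0.921 and 0.904), and *Msx2*, which had few UMIs, by *Mutyh*, *Uqcr11* and *Fam162a* (0.915, 0.894 and 0.890).

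Some levels differed the same way between the replicate numbers, that is between the deeper and shallower libraries, in 4 of 4 groups. *Maf* was higher in replicate 1 in 4 of 4 groups in *Lepr*+ MSC-like, *Lepr*+ OP-like (by 0.80 on the log2 scale), OP/preOB-like, proliferating OP/preOB-like and osteocyte-like cells, and *Sp7* in OP/preOB-like, OB-like and osteocyte-like cells. *Creb3l1* was higher in replicate 1 in 4 of 4 groups in OP/preOB-like cells (by 0.48), and *Runx2* in *Lepr*+ OP-like cells (by 0.39). *Dlx5* in OB-like and osteocyte-like cells, *Atf4* in OB-like cells and *Prrx1* in osteocyte-like cells were higher in replicate 2 in 4 of 4 groups. Both genotypes and ages hold 1 mouse of each number, and the part of depth in these differences was not tested. The share of all genes that differ in this way in 4 of 4 groups is not given, so the list is not read as a result about these genes.

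None of the 9 genes was called changed in SOXCOsxCre against control mice in any class, over both ages or at either age. The test was the quasi-likelihood one of edgeR on UMIs summed per mouse and class, from a single fit to the 4 groups with adjustment over all genes tested in a class. Of the 99 gene and class pairs, 84 had enough UMIs to be tested, 71 of them in the 9 osteogenic and chondrocyte classes. *Msx2* was testable only in OB-like and hypertrophic GPC-like cells, *Dlx3* was not testable in *Sca1*+ MSC-like, *Lepr*+ MSC-like, proliferating OP/preOB-like, pericyte-like and endothelial-like cells, and *Sp7* not in pericyte-like cells. Over both ages, 0 of the 84 pairs were called by edgeR, 1 by DESeq2 and 2 with the pair of mice as a block, and 6 had an unadjusted p of at most 0.05. The share of all genes at this unadjusted limit is not given, so the 6 pairs are described below and their count is not read as a result about these genes. The share of all genes called over both ages was 1.31% in OB-like, 1.63% in osteocyte-like, 0.930% in *Lepr*+ OP-like, 0.770% in OP/preOB-like, 0.407% in *Sca1*+ MSC-like and 0.217% in *Lepr*+ MSC-like cells. It was 0.0699% in proliferating OP/preOB-like, 0.0257% in hypertrophic GPC-like, 0.00858% in GPC-like and 0.0130% in pericyte-like cells, and 0 in endothelial-like cells. At 7 weeks edgeR called 0.323% of all genes in osteocyte-like, 0.233% in *Lepr*+ OP-like, 0.127% in OB-like, 0.0371% in OP/preOB-like, 0.0175% in proliferating OP/preOB-like, 0.00870% in *Lepr*+ MSC-like and 0.00858% in GPC-like cells, and none in the other classes. At 13 weeks these shares were 0.295% in OB-like, 0.281% in osteocyte-like, 0.214% in *Lepr*+ OP-like, 0.0835% in OP/preOB-like and 0.0531% in *Sca1*+ MSC-like cells, with none elsewhere. A count of 0 among the 9 genes is close to these shares. DESeq2 called 0.715% and the block 2.56% of all genes over the 11 classes (2.42% and 7.97% in OB-like cells), so that 1 and 2 of 84 pairs are also near the shares of their own fits.

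For 71 of the 84 pairs, the 95% interval of the fold change over both ages lay within 2-fold in either direction. *Runx2* in OB-like cells had a mutant over control ratio of 1.01 with an interval from 0.870 to 1.17, *Creb3l1* 1.01 (0.857 to 1.19), *Dlx5* 1.07 (0.913 to 1.26), *Sp7* 0.925 (0.75 to 1.14), *Dlx3* 0.964 (0.790 to 1.18), *Atf4* 0.927 (0.802 to 1.07) and *Maf* 0.915 (0.749 to 1.12). These ratios are on the TMM scale of the fit, which turns the direction of the mean CPM for *Runx2* (123 in controls and 116 in mutants), *Creb3l1* (312 and 296) and *Dlx5* (48.8 and 48.7). On the CPM scale *Runx2* and *Creb3l1* were each lower in the mutant in 4 of 4 pairs of the same age and number, and on the TMM scale in 2 of 4. These intervals, at this depth and with 4 mice per genotype, bound the differences but do not show equality. *Sp7*, whose promoter drives the Cre transgene, was 147, 131, 165 and 131 CPM in the OB-like cells of the controls and 129, 116, 140 and 112 in those of the mutants, so that the genotypes overlapped, but each mutant was below the control of the same age and number in 4 of 4 pairs, also on the TMM scale. The fit with the block had -0.11 and did not call it (adjusted p = 0.20, edgeR). *Atf4* in OB-like cells was likewise below its control in 4 of 4 pairs on both scales and was not called with the block (-0.11, adjusted p = 0.249, edgeR). The share of all genes that differ the same way in 4 of 4 pairs is not given. Counts of pairs, here and below, are therefore a description and not read as a result about these genes.

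**Figure D4:**
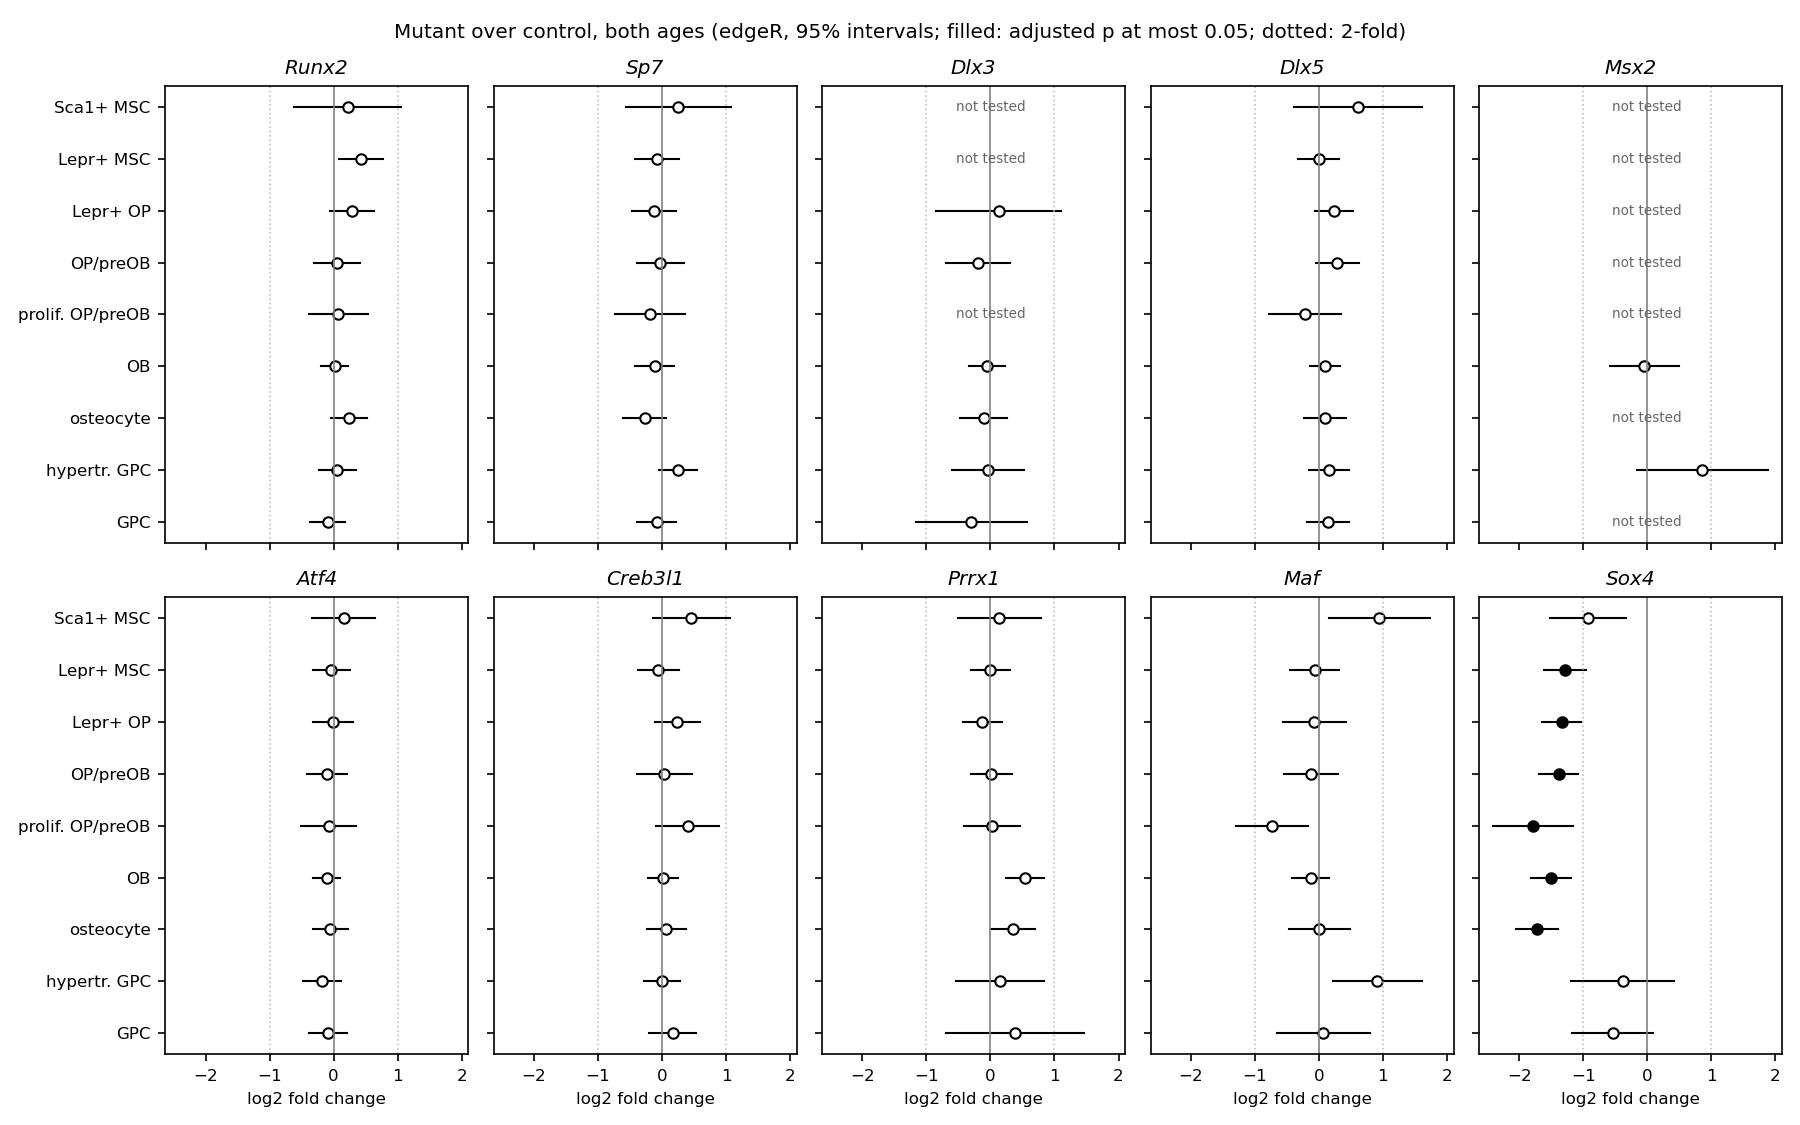
Mutant over control log2 fold change over both ages with its 95% interval (edgeR), for each of the 9 genes and *Sox4* in the 9 osteogenic and chondrocyte classes where they were testable, with dotted lines at 2-fold and filled points where the adjusted p was at most 0.05. The 9 genes have no filled point, *Prrx1* in OB-like cells (0.54) came nearest, and *Sox4* has 6.

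*Prrx1* in OB-like cells came nearest to a call. It was 78.2 and 104 CPM in the controls and 90.5 and 136 in the mutants at 7 weeks, and 53.9 and 57.2 against 86.9 and 78.4 at 13 weeks. The mutant of each age and replicate number was above the control of the same number in 4 of 4 pairs, and the groups did not overlap at 13 weeks but did at 7 weeks. The log2 difference over both ages was 0.54 ± 0.13 (SE), with an unadjusted p of 0.00218 and an adjusted p of 0.0911 (edgeR). DESeq2 called it (adjusted p = 0.00794), as did edgeR with mice of the same age and number as a block (0.53, adjusted p = 0.000829) and without a filter on low counts (adjusted p = 0.000476). Over all alternatives the adjusted p ran up to 0.342. At 13 weeks the difference was 0.69 (adjusted p = 0.288, and 0.00313 with the block), and at 7 weeks it was not called in either fit (adjusted p = 0.0597 with the block). The difference between the ages was not called. In OB-like cells the summed level of the 10 *Lepr*+ OP markers, a class with much *Prrx1*, was 242 to 439.7 CPM in controls and 232 to 404 in mutants, and it was higher in the mutant in 2 of 4 pairs of the same number, with 8 of the 10 markers higher in mean in the mutants. The summed 15 *Lepr*+ MSC markers, also of a class with much *Prrx1*, were lower in the mutant in 3 of 4 pairs (127 to 189 CPM in controls and 111 to 174 in mutants, 5 of 15 higher in mean). The summed 15 preOB markers (1191 to 1633 CPM in controls and 1309 to 2151 in mutants, 9 of 15 higher in mean) and the summed 12 pericyte markers (51.8 to 66.6 and 56.7 to 87.4, 4 of 12 higher in mean) were, like *Prrx1*, higher in the mutant in 4 of 4 pairs, and *Prrx1* was high in both OP/preOB-like and pericyte-like cells. The part of such cells in the *Prrx1* difference was not tested. In osteocyte-like cells *Prrx1* was 0.36 ± 0.16 higher (unadjusted p = 0.0417, adjusted p = 0.429, edgeR). The preOB markers moved with it, at 738 to 1239 CPM in controls and 1103 to 1984 in mutants, with 11 of the 15 higher in mean and the sum higher in 4 of 4 pairs, and their part was not tested.

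*Maf* in hypertrophic GPC-like cells was set by 1 mouse, the replicate 2 mutant of 7 weeks. The controls had 10.9 and 18.2 CPM at 7 weeks and 10.4 and 8.93 at 13 weeks, and the mutants 22.8 and 77.9 at 7 weeks and 7.47 and 12.7 at 13 weeks. At 7 weeks both mutants were above both controls, and at 13 weeks the groups overlapped. The log2 difference at 7 weeks was 1.77 ± 0.45 (unadjusted p = 0.00123, adjusted p = 0.571, edgeR). It was called with the block (1.55, adjusted p = 0.00859, edgeR) and without the filter on low counts (adjusted p = 7.65e-09, edgeR). Without the replicate 1 mutant of 7 weeks the difference was 2.42 at 7 weeks and 1.24 over both ages, against 0.91 with all mice. Without the replicate 2 mutant of 7 weeks it was 0.67 at 7 weeks and 0.36 over both ages. Each of these leaves 1 mutant at 7 weeks. The 10 *Lepr*+ OP markers, in whose cells *Maf* is high, summed to 1309 CPM in the hypertrophic GPC-like cells of the replicate 2 mutant of 7 weeks and to between 359 and 672 in the other 7 mice, with 8 of the 10 higher in mean in the mutants. The 15 *Lepr*+ MSC markers, of another class with much *Maf*, were at 246 CPM in that mouse and at 136 to 258 in the others. The 15 *Sca1*+ MSC markers, also of a class with much *Maf*, were lowest in that mouse, at 746 CPM against 840 to 1233 in the others. The 13 endothelial markers, again of a class with much *Maf*, were at 66.3 CPM in that mouse and at 10.3 to 34.3 in the others, with 10 of the 13 higher in mean in the mutants. The part of these cells in the *Maf* difference was not tested.

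Of the other 3 pairs over both ages with an unadjusted p of at most 0.05, *Runx2* in *Lepr*+ MSC-like cells was 214, 217, 192 and 218 CPM in controls and 334, 218, 325 and 243 in mutants. Both replicate 1 mutants were far above the controls and the replicate 2 mutants close to them, and the log2 difference was 0.42 ± 0.16 (adjusted p = 0.57, edgeR). In this class the summed OB markers (1645 to 2690 CPM in controls and 1586 to 4252 in mutants, 11 of 17 higher in mean), preOB markers (4478 to 6452 and 5378 to 6473, 10 of 15) and *Lepr*+ OP markers (9513 to 14408 and 10819 to 14097, 5 of 10) were each higher in the mutant in 3 of 4 pairs. In controls *Runx2* was lower in OB-like (123 CPM) than in *Lepr*+ MSC-like cells (210.1), and higher in OP/preOB-like (312) and *Lepr*+ OP-like cells (303). The part of these cells was not tested. *Maf* in *Sca1*+ MSC-like cells, of which a mouse gave between 41 and 176, was 224, 165, 224 and 594 CPM in controls and 608, 409.9, 408 and 722 in mutants. Its difference was 0.94 ± 0.36 (adjusted p = 0.346, edgeR). Without the replicate 2 control of 13 weeks, which leaves 1 control at that age, it was 1.48. The sum of the 15 *Sca1*+ MSC markers was 15493 to 20576 CPM in the 3 controls with low *Maf*, 39946 in the replicate 2 control of 13 weeks and 27315 to 39826 in the mutants, but only 5 of the 15 had a higher mean in the mutants. The sum of the 17 OB markers did not overlap between genotypes (4010 to 6851 CPM in controls and 7369 to 9864 in mutants, 11 of 17 higher in mean in the mutants), and the 5 Schwann cell markers varied from 314 to 5363 in controls and from 374 to 2654 in mutants, with 0 of 5 higher in mean. The 15 *Lepr*+ MSC markers, of a class with much *Maf*, were lower in the mutant in 3 of 4 pairs (1435 to 4153 CPM in controls and 1330 to 2205 in mutants, 4 of 15 higher in mean). In controls *Maf* was lower in OB-like (27.9 CPM) than in *Sca1*+ MSC-like cells (302). The part of these cells was not tested. *Maf* in proliferating OP/preOB-like cells, of which a mouse gave between 18 and 105, was 188 ± 59.9 CPM in controls and 111 ± 17.7 in mutants. This difference of -0.73 ± 0.26 (adjusted p = 0.571, edgeR) was called with the block (-0.71, adjusted p = 0.0439). Markers of other classes differed in both directions. The 15 *Lepr*+ MSC markers, of a class with much *Maf*, were lower in the mutant in 4 of 4 pairs and did not overlap (2572 to 5591 CPM in controls, 1024 to 2246 in mutants, 1 of 15 higher in mean). The 10 *Lepr*+ OP markers, of the class with the most *Maf*, were higher in 2 of 4 pairs (7453 to 10671 and 6399 to 11305, 3 of 10 higher in mean). Unlike *Maf*, the summed preOB markers were higher in 4 of 4 pairs (8237 to 14159 and 9411 to 19798) with 5 of 15 higher in mean. GPC markers were at 15232 CPM in the replicate 1 mutant of 13 weeks, while the other mutants (738 to 1929) were in or below the range of the controls (1118 to 2531). The part of such cells in the *Maf* difference was not tested.

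**Figure D5:**
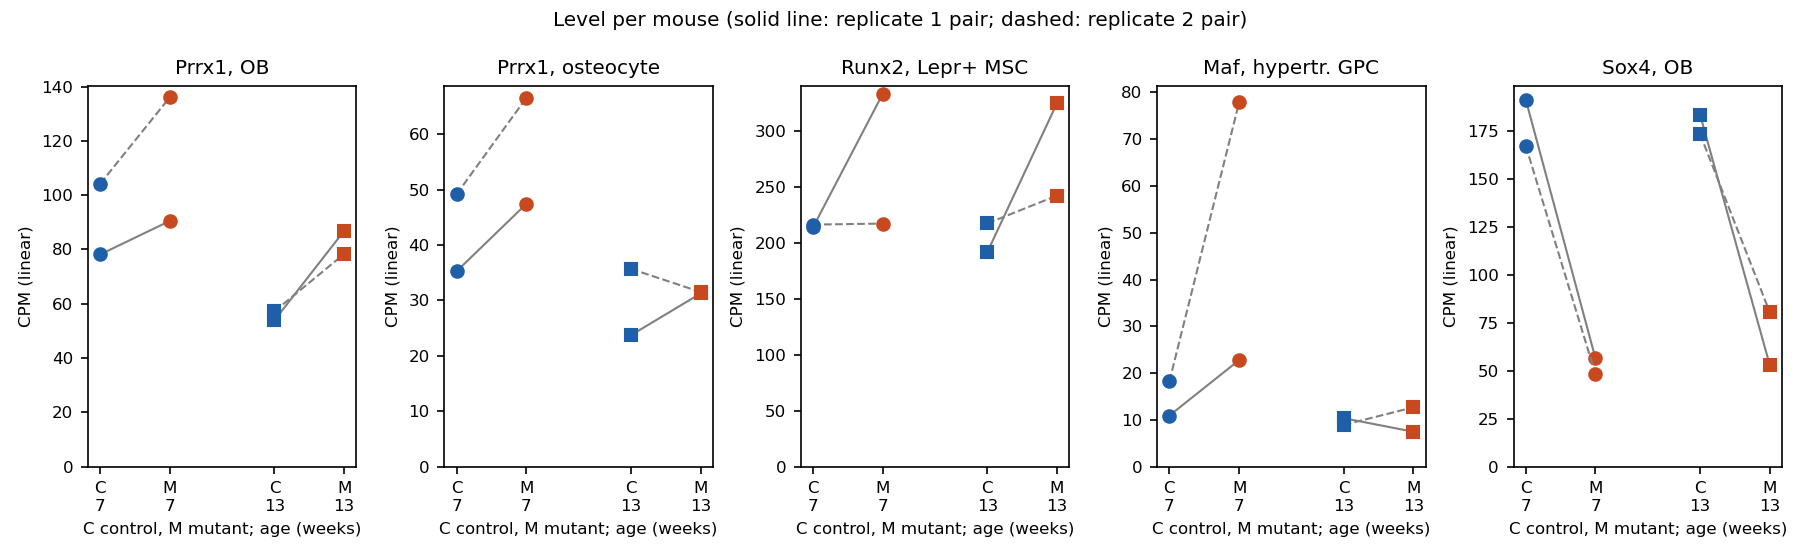
Level (CPM, linear axis) of 4 of the gene and class pairs with an unadjusted p of at most 0.05, and of *Sox4* in OB-like cells, with 1 point per mouse by genotype and age (weeks) and lines between mice of the same replicate number (solid 1, dashed 2). *Prrx1* in OB-like cells is higher in both mutants than in both controls at 13 weeks, and *Maf* in hypertrophic GPC-like cells is set apart by the 7-week mutant with 77.9 CPM.

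Between control mice of 13 and 7 weeks, edgeR called none of the 84 pairs, DESeq2 called 1, and 13 had an unadjusted p of at most 0.05. Shares of all genes are not given for DESeq2 or for this unadjusted limit, so neither count is read as a result about these genes. The pair that DESeq2 called was *Prrx1* in OB-like cells, lower at 13 weeks by 0.74 on the log2 scale (edgeR adjusted p = 0.222, DESeq2 adjusted p = 0.0258). *Prrx1* was also lower in OP/preOB-like (-0.59), proliferating OP/preOB-like (-0.90) and osteocyte-like cells (-0.55), each with an adjusted p of at least 0.492. *Dlx3* in hypertrophic GPC-like cells had -1.35 ± 0.39 (adjusted p = 0.111, edgeR), and -1.81 without the replicate 2 control of 13 weeks, which leaves 1 control at that age. *Msx2* in OB-like cells had -1.44 ± 0.34 (adjusted p = 0.18, edgeR). The other pairs lower at 13 weeks were *Sp7* in *Lepr*+ MSC-like (-0.53) and *Maf* in endothelial-like cells (-0.53). Those higher at 13 weeks were *Creb3l1* (0.50, adjusted p = 0.215) and *Dlx5* (0.46, adjusted p = 0.291) in hypertrophic GPC-like, *Sp7* in proliferating OP/preOB-like (1.01), *Maf* in *Sca1*+ MSC-like (1.17) and *Dlx5* in endothelial-like cells (1.36), the last 3 with an adjusted p of at least 0.611. The *Maf* value came mostly from the replicate 2 control of 13 weeks, with 594 CPM against at most 224 in the other controls. Of all genes, edgeR called 0.806% in hypertrophic GPC-like, 0.362% in OP/preOB-like, 0.154% in GPC-like, 0.140% in *Lepr*+ OP-like, 0.0774% in OB-like, 0.0368% in endothelial-like and 0.0175% in proliferating OP/preOB-like cells between these ages. The difference between the ages in the mutant effect was called for 0 of 84 pairs by edgeR and by DESeq2, and by edgeR for 0.0177% of all genes in *Sca1*+ MSC-like, 0.00858% in GPC-like cells and none in the other classes. At an unadjusted p of at most 0.05 there were 2 pairs, a count that is not read as a result either.

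Other genes of the pathway were taken as 5 lists of 86 genes in all (paralogs and partners of the 9 factors, bone matrix and mineral targets, ATF4 targets, collagen secretion genes, and stromal and adipogenic factors). Over both ages in the osteogenic and chondrocyte classes, 5 of 660 testable gene and class pairs were called (0.758%). In this edgeR fit that is within the range of the shares of all genes given above, and other fits were not compared in this way. The collagenase gene *Mmp13* was higher by 1.66 ± 0.30 in *Sca1*+ MSC-like cells and *Spp1* (osteopontin) by 1.94 ± 0.35 in osteocyte-like cells. *Phex*, an endopeptidase of phosphate balance, was lower by 1.16 ± 0.16 in *Lepr*+ MSC-like cells, and *Psat1*, an enzyme of serine synthesis, by 0.65 ± 0.12 in OB-like and 0.78 ± 0.18 in osteocyte-like cells. None of the 32 paralogs and partners, including the cofactor gene *Cbfb* and *Dlx6*, was called in any class. *Psat1* is an ATF4 target, and it was the only one of 21 called in OB-like cells, where the list had a median of 0.03 against -0.00 over all genes tested. The matrix and mineral targets had a median of 0.44 in *Sca1*+ MSC-like cells (11 testable, 1 called), 0.42 in *Lepr*+ OP-like and 0.32 in OP/preOB-like cells (12 testable, none called), against -0.01, -0.00 and 0.00 over all genes. The summed OB markers were higher in the mutant in 4 of 4 pairs in these 3 classes, at 2992 to 4094 CPM in controls and 3067 to 5981 in mutants in *Lepr*+ OP-like cells and at 6691 to 11365 and 9057 to 36289 in OP/preOB-like cells, and the part of OB cells or their RNA in these medians was not tested.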

How the data were processed

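Bone cells of 8 mice were counted with Cell Ranger 6.1.2 on mm10, per the labels, and the authors deposited the counts (whole UMIs of each gene in each barcode) without normalising them. The authors' labels also name Seurat 4.3, and the labels give a NextSeq 2000 where the study's methods name a NovaSeq. The study left out cells by the limits below and removed doublets. Its clusters were not used here.

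The 9 genes, the related lists and the markers were chosen with earlier results of these data known. Cells were kept with 200 to 6000 genes and at most 10% mitochondrial UMIs, except doublets called by likeness to simulated ones (9.67 to 11.3% of cells in a library). The remaining cells were integrated with Seurat 5.3.0 (reciprocal PCA, 2000 variable genes without the 9 genes and SOXC genes, 30 components) and clustered with leidenalg 0.10.2 at resolution 1. A cluster was named from markers with at least 2-fold of the median of the other clusters (5 CPM added) and a UMI in at least 10% of cells, when at least 3 counted. This naming rule was set with the clusters in view. Clusters with a median UMI count under 33.3% of the library median were set aside.

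UMIs were summed per mouse and class (at least 10 cells) and tested with edgeR 4.0.16 (TMM, filterByExpr, quasi-likelihood) with a mean per group, which leaves 4 residual degrees of freedom besides those shared across genes. DESeq2 1.42.0 was an alternative. The fits were tested on simulated data, where changes of 1 on the log2 scale were recovered for 72.7% of changed genes in *Lepr*+ MSC-like and 87.8% in OB-like cells. The genes named are the 9, the SOXC genes, every list gene called over both ages in an osteogenic or chondrocyte class (at most 10 per class), for each of the 9 the 3 genes of highest correlation, and leading genes of the OB-like clusters. For *Prrx1* only 2 of the 3 are given, and the other is not reported here. Positions come from the GENCODE annotation of GRCm38.

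The study describes the mice as pairs of sisters, but does not tie the replicate numbers to the pairs. Same-numbered mice of an age deviated together (r above 0.1 at both ages) in every class except *Sca1*+ MSC-like (0.012 at 13 weeks) and GPC-like cells (0.0436 at 13 weeks). The fit with such mice as a block is therefore given beside results that it changes. Replicate 1 libraries were deeper in every group, so the block cannot tell sister pairs from depth. The mice are the replicates, and depth limits what is detectable for *Msx2* and *Dlx3*.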

Additional observations from a re-analysis of the deposited data

Results flagged for a closer look

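A mouse set apart from the rest of its group was looked for in 136 groups of 4 mice of 1 genotype (both ages together, at least 50 UMIs in the 4 mice) and in 45 steps over 8 mice, by comparing the gap to the nearest mouse with the range of the group. It was found in 9 groups and 3 steps, and chance gives about 1 in 20. In *Lepr*+ MSC-like cells, *Runx2* was 191.92 CPM in the replicate 1 control of 13 weeks, below the other controls (214 to 218), and in osteocyte-like cells it was 77.5 in the replicate 2 control of 7 weeks, the lowest control. *Sp7* was 86.9 CPM in the *Sca1*+ MSC-like cells of the replicate 2 control of 13 weeks, from 31 UMIs, where the next control had 37.9. It was 53.5 in the hypertrophic GPC-like cells of the replicate 1 control of 13 weeks, the highest control, and 41.1 in the GPC-like cells of the replicate 2 mutant of 7 weeks, the lowest mutant. *Maf* was 594 CPM in the *Sca1*+ MSC-like cells of the replicate 2 control of 13 weeks, against 224 in the next control. The replicate 2 mutant of 7 weeks was also the highest mutant for *Maf* in GPC-like cells (11.7, from 17 UMIs) and for *Prrx1* in proliferating OP/preOB-like cells (408, where the next had 253). *Creb3l1* in *Sca1*+ MSC-like cells was lowest among the mutants in the replicate 1 mutant of 7 weeks (118).

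At the step from OB-like to osteocyte-like cells, *Creb3l1* fell most in the replicate 2 control of 7 weeks (-0.51 on the log2 scale, against -0.23 to -0.36 in the others). *Prrx1* rose most from *Lepr*+ MSC-like to *Lepr*+ OP-like cells in the replicate 1 control of 7 weeks (0.88, next 0.55), and fell most from there to OP/preOB-like cells in the replicate 1 control of 13 weeks (-1.01, next -0.68).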

How the results depend on the processing

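The 9 genes had no call in the mutants over both ages, at either age or between ages, and none with age in controls. DESeq2 called 1 pair over both ages and 1 with age in controls. Without the filter on low counts 2 were called over both ages, 1 at 7 weeks, 1 at 13 weeks, 1 for the difference between ages and 3 with age in controls. The replicate block gave 2 over both ages, 1 at 7 weeks and 1 at 13 weeks. Leaving out 1 mouse gave 0 to 1 over both ages, 0 to 1 at 7 weeks, 0 to 1 with age in controls and 0 elsewhere. The block changed no other call of the 9 genes. For these alternatives, shares of all genes are given below over both ages only. *Sox12* was called in 3 classes and in 5 without the filter, and *Sox4* in 5 to 6 without 1 mouse. The 5 calls of the lists became 11 with DESeq2, 42 without the filter, 54 with the block and 3 to 15 without 1 mouse. The alternatives for SOXC genes and lists were added after the data had been seen. No share of the lists (660 testable pairs in the main fit) was computed in the alternatives, so the likeness to all genes is stated for the main fit only. Across all genes in the same 9 classes the share called was 0.636%, against 0.803% with DESeq2, 1.36% without the filter and 3.07% with the block, and in OB-like cells 186 genes were called, against 331 (2.42%), 682 (3.04%) and 1133 (7.97%).

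Level steps called were 28, and 32 under TMM scaling, 24 at 5% mitochondrial UMIs and 25 to 29 without 1 mouse. TMM scaling changed the sign of 4 steps. Those of *Atf4* (0.64) and *Msx2* (0.46, from -0.03 ± 0.484) to OB-like cells and of *Sp7* to osteocyte-like cells (-0.33) passed under it. That of *Runx2* to OP/preOB-like cells (0.13, from -0.08 ± 0.151) passed on neither scale. With the 4 control mice alone no step can pass, since the smallest p is 0.125. The causes were not tested.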
